A study of Mus musculus with 26 samples.

Results

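The enzymes of the pentose phosphate pathway were examined in inguinal white adipose tissue of mice lacking ChREBP or its shorter isoform. Members were all array probes whose gene name was G6pdx, H6pd, Pgls, Pgd, Rpia, Rpe, Tkt, Tktl1 or Taldo1. The rule found 19 probes of 9 genes among 56605 non-control probes. The deposited table of log2 values held 18 of these probes, from 8 genes, among 40168 probes with 26154 gene names. Tktl1 had no row in that table and was read from the scanner files only.

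RNA of 26 male C57BL6/J mice had been hybridised to 1-colour oligonucleotide arrays, 1 mouse per array. The ChREBPtotal_KO group (n = 7) carried a null allele of Mlxipl, the gene of the glucose-responsive transcription factor ChREBP, and lacked both isoforms. The ChREBPbeta_KO group (n = 5) came from a line in which CRISPR/Cas9 editing had deleted the exon particular to ChREBPβ. Each line had WT mice of its own, ChREBPtotal_WT (n = 7) and ChREBPbeta_WT (n = 7). Both deletions were present in every tissue, so the groups do not isolate an effect in fat cells. All groups shared the same feeding, a fast of 24 h and then 18 h of food with 20% glucose in the drinking water. The ages of the mice were not given in the sources used here.

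The pentose phosphate pathway branches off glycolysis at glucose 6-phosphate. Its oxidative branch makes NADPH, which fatty acid synthesis and antioxidant reductases consume, and ends in ribulose 5-phosphate. Its non-oxidative branch interconverts sugar phosphates reversibly and links ribose 5-phosphate, the precursor of nucleotides, back to glycolytic intermediates. Adipose tissue that makes fat from glucose has a high demand for NADPH.

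Tkt, transketolase of the non-oxidative branch, carried the largest differences among the members, and its 3 probes did not move alike. Their sequences are shown because they lie at separate places of the gene. Capitals mark the longest run of bases that the brightest and the dimmest probe share, 10 bases long.
A_51_P394515: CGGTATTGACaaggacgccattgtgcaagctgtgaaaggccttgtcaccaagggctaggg
A_52_P631197: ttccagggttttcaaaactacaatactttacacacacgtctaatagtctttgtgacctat
A_66_P121998: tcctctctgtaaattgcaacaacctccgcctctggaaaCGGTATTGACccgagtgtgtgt
On the plus strand of build mm9, A_51_P394515 lies at chr14:31386641-31386700, A_52_P631197 at chr14:31375465-31375524 and A_66_P121998 at chr14:31361653-31361712. The array annotation placed A_51_P394515 at position 1957 of the RefSeq transcript of Tkt, and the other probes on Ensembl transcripts only, at positions 3037 and 108. A_52_P631197 starts 11176 bp and A_66_P121998 24988 bp before A_51_P394515, and the GC content was 55%, 35% and 50% in the order of the lines above. Whether each probe lies in an exon, an intron or a UTR was not analysed here.

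Promoters of the members were read from RefSeq sequences of build GRCm38.p6, as the 250 bases before each annotated start, in 10 promoters of 9 genes. The core E-box CACGTG, which reads the same on both strands, was in 0 of these 10 promoters and in 6.02% of all 32851 promoters. The carbohydrate responsive element through which ChREBP acts was not searched for, nor was any sequence beyond these bases. The GC box GGGCGG, on either strand, was in 8 of the 10, from every member but H6pd, and in 32.7% of all promoters. The promoters of Tkt and Rpe are shown, as the members with the largest fall and rise, with GC boxes of either strand in capitals.
Tkt chr14:30548881-30549130: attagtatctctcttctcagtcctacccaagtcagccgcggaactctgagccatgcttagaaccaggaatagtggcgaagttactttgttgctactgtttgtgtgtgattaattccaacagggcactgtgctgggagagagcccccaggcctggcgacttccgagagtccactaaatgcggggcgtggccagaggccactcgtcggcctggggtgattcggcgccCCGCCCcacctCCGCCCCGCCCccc
Rpe chr1:66700581-66700830: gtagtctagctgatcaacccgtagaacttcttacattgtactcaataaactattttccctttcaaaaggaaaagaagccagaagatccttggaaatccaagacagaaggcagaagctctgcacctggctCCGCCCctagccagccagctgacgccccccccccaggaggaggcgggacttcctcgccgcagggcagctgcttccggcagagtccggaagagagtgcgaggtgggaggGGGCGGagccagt
The Tkt promoter held 3 GC boxes, of which a pair overlaps, and the Rpe promoter held 2.

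The arrays were of similar quality. Between 70.2% and 76.5% of spots were well above background, 0 spots were saturated, and Pearson's r between arrays across probes ran from 0.954 to 0.996. The targeted gene was lower in both KO groups at Mlxipl probe A_55_P2119957, by 2.28 in total KO (adjusted p = 1.90e-13, limma) and by 1.52 in ChREBPβ KO (adjusted p = 6.45e-07), as log2 differences with no overlap between KO and WT arrays. Mlxipl probe A_55_P2728555 gave −0.90 (adjusted p = 2.34e-06) and −0.68 (adjusted p = 0.0596), and A_55_P2045158 gave −0.13 (adjusted p = 0.159) and 0.04 (adjusted p = 0.974); which of these probes lie in the deleted parts was not analysed here. All 10 adipocyte markers were well above background on all 26 arrays. Cell markers moved with the groups, however. The mean log2 value of 13 lymphocyte markers was 11.25 to 12.84 in total WT, 8.48 to 11.51 in total KO, 7.85 to 8.80 in ChREBPβ WT and 7.86 to 9.32 in ChREBPβ KO. The mean log2 value of 7 thermogenic fat markers was 11.10 to 13.57 in total WT and 10.53 to 11.35 in total KO. It was 9.37 to 11.06 in ChREBPβ WT and 9.12 to 10.01 in ChREBPβ KO. The fits below with marker scores as covariates held the lymphocyte and muscle scores only. In total KO, all 13 lymphocyte markers were called lower, 9 of 10 adipocyte markers were called higher, 4 of 10 macrophage markers lower, 2 of 12 skeletal muscle markers higher, and 4 of 7 thermogenic fat markers lower with 1 higher. All 12 muscle markers had a higher mean in total KO, with a median log2 difference of 2.49 and 8 at an unadjusted p under 0.05 (limma). The mean log2 value of the muscle markers was 6.13 to 11.76 in total WT and 6.01 to 13.09 in total KO. All 10 macrophage markers had a lower mean in total KO, with a median log2 difference of −0.72. In ChREBPβ KO, 0 markers of any of these lists were called by limma, and 4 had an unadjusted p under 0.05, of which 2 were adipocyte and 2 thermogenic fat markers. Every lymphocyte marker was well above background on every array, as were 8 of 12 muscle markers, and the mean of the muscle markers ranged from 5.94 to 13.09 over the arrays. In tissue RNA, fewer cells of a type and less RNA per cell cannot be told apart.

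In total ChREBP KO, 9 of 18 member probes were called lower and 3 higher than in WT, where probes of the same gene count separately. Outside Tkt, each of the lower calls was lost under some of the other fits, as given below. Over all 40168 probes, 45.5% were called in this comparison, 19.6% lower and 25.9% higher. The median log2 difference of the member probes was −0.28, against 0.05 for all probes. Of the 8 genes taken by their brightest probe, Tkt, Pgd and Taldo1 were lower, Rpe was higher, and G6pdx, H6pd, Pgls and Rpia did not pass the test. The ranges of KO and WT were separate at 5 of the 18 probes, 2 of Tkt and all 3 of Rpe, against 14.0% of all probes.

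In ChREBPβ KO, 1 of 18 member probes was called, a Tkt probe that was lower, against 0.0373% of all probes (15 of 40168), 0.0324% lower and 0.00498% higher. An unadjusted p under 0.05 was reached by 6 of the 18 probes and by 3111 of the 40168. The median log2 difference of the member probes was −0.13, against 0.00397 for all probes. The ranges of KO and WT were separate at 2 of the 18 probes, one of Tkt and one of Pgls, against 0.393% of all probes.

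The effects of both deletions differed at 5 of 18 member probes, where 22.5% of all probes were called in that test. The ChREBPβ effect was the higher at 2 Tkt probes (10.0% of all probes) and the lower at the 3 Rpe probes (12.5% of all probes). The WT mice of the 2 lines differed at 6 of 18 member probes, where 45.3% of all probes were called. ChREBPβ WT was higher at 4 of these, the 3 Rpe probes and H6pd (25.6% of all probes), and lower at 1 Pgls and 1 Pgd probe (19.8% of all probes).

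**Figure D1:**
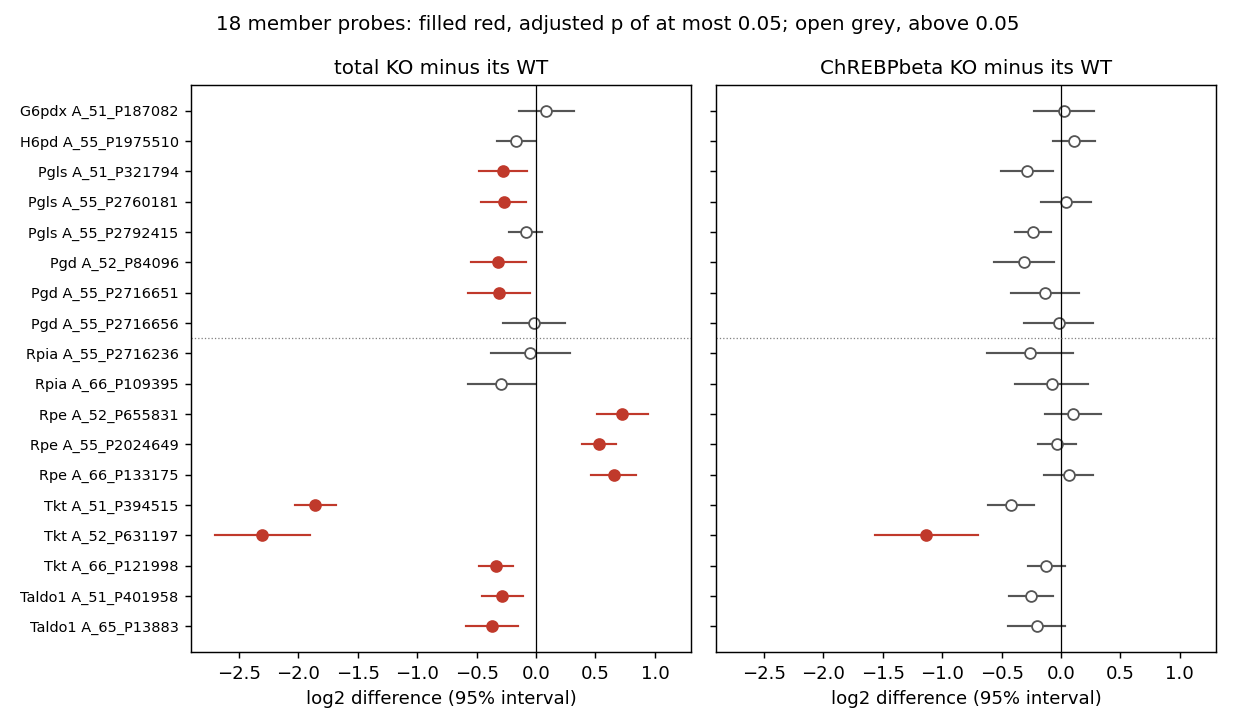
Log2 difference of KO minus WT with its 95% interval for the 18 member probes, in total ChREBP KO on the left and ChREBPβ KO on the right. Filled red points passed an adjusted p of 0.05, open grey points did not, and the dotted line separates the oxidative branch above from the non-oxidative branch below. Tkt stood at −1.86 and −2.30 at 2 probes in total KO, and the 3 Rpe probes stood between 0.53 and 0.72.

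Tkt transfers carbon pairs between sugar phosphates in the non-oxidative branch. At its brightest probe, A_51_P394515, total WT arrays read 17.88, 17.95 and 18.06 (lowest, median and highest log2 value) and total KO arrays 15.99, 16.04 and 16.25. All 7 KO arrays lay below all 7 WT arrays, with means of 17.96 ± 0.08 and 16.11 ± 0.11 (SD). The log2 difference was −1.86 (SE 0.08, adjusted p = 1.78e-14), which left 27.6% of the WT level. In all 4 wash batches, a batch given by the labels, KO was lower, by log2 differences of −2.03 to −1.76. With the lymphocyte and muscle scores as covariates the difference was −1.98 (adjusted p = 1.50e-10).

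In ChREBPβ WT the same probe read 17.62, 17.86 and 18.11, and the 5 ChREBPβ KO arrays (replicates 1, 2, 4, 5 and 6, here and below) read 17.60, 17.45, 17.62, 17.45 and 17.11. Most KO arrays lay below the WT range, with an overlap at its lower end. The log2 difference was −0.42 (SE 0.09), or 74.6% of the WT level, with an unadjusted p of 0.000115 and an adjusted p of 0.121, which did not pass. It passed without ChREBPβ KO replicate 4 (−0.47, adjusted p = 0.0447) and without ChREBPβ WT replicate 7 (−0.46, adjusted p = 0.0392). The effect of losing ChREBPβ differed from that of losing both isoforms by 1.43 on the log2 scale (SE 0.13, adjusted p = 1.62e-08). Tkt levels at this probe ordered the groups as total KO, ChREBPβ KO, ChREBPβ WT and total WT from low to high. Total KO lay below the rest without overlap, whereas each of the other neighbours in that order overlapped. Both WT groups differed by −0.09 (SE 0.08, adjusted p = 0.405).

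**Figure D2:**
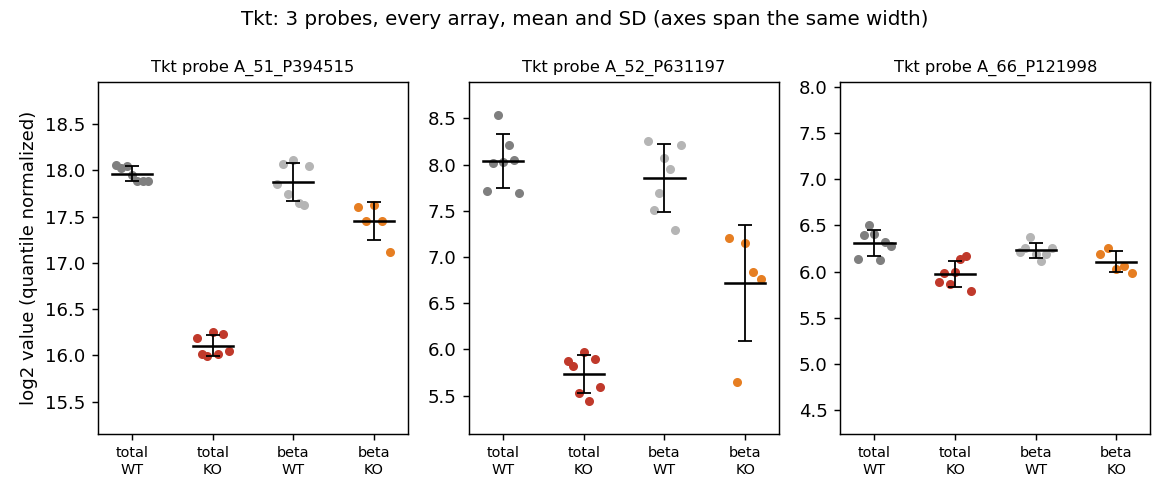
Log2 value of the 3 Tkt probes on every array, in the 4 groups, with the mean as a line and the SD as a bar. The panels span equal numbers of log2 units, so the heights of differences can be compared between panels but the levels cannot. At A_51_P394515 the total KO arrays sit at 15.99 to 16.25, and at A_52_P631197 1 ChREBPβ KO array sits at 5.65, below the other 4.

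The other Tkt probes moved by different amounts. A_52_P631197 read 7.69, 8.02 and 8.54 in total WT and 5.44, 5.82 and 5.97 in total KO, with no overlap. Its log2 difference was −2.30 (SE 0.19, adjusted p = 8.01e-10). A_66_P121998 read 6.13, 6.32 and 6.50 in total WT and 5.79, 5.98 and 6.17 in total KO. These ranges overlapped, and the log2 difference was −0.34 (SE 0.07, adjusted p = 0.00027). The fall in total KO was thus called at all 3 probes, but the level left ranged from 79.2% of WT at A_66_P121998 to 20.3% at A_52_P631197. These percentages include background signal, because the deposited values were reproduced from spot intensities without background subtraction.

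In ChREBPβ KO, A_52_P631197 was the called member. The ChREBPβ WT arrays read 7.30, 7.95 and 8.25, and the KO arrays read 7.20, 5.65, 7.15, 6.84 and 6.77. All KO arrays lay below all WT arrays, with replicate 2 far below the others. The log2 difference was −1.13 (SE 0.21, adjusted p = 0.0378). Without replicate 2 it was −0.86 (adjusted p = 0.125), and the call was lost in 15 of the 26 fits that each left out 1 array, with adjusted p-values of up to 0.188. The fall stood in all 3 wash batches that held ChREBPβ KO arrays, at −1.64 to −0.34. The effects of the 2 deletions differed by 1.17 at this probe (SE 0.28, adjusted p = 0.00476). A_66_P121998 differed by −0.12 in ChREBPβ KO (SE 0.07, adjusted p = 0.762), and the difference of the effects was 0.21 (adjusted p = 0.133).

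Unequal change of the probes was tested within arrays, by the difference of 2 probes, with exact two-sided permutation over the arrays of a line and adjustment over 6 tests. In total KO the fall was smaller at A_66_P121998 than at A_52_P631197 by 1.97 and than at A_51_P394515 by 1.52 (exact adjusted p = 0.00175 for both). A_52_P631197 fell more than A_51_P394515 by 0.45 (exact adjusted p = 0.00699), but this difference turned to 0.12 the other way when the background was corrected. In ChREBPβ KO, A_66_P121998 stood above A_52_P631197 by 1.01 (exact adjusted p = 0.00699) and above A_51_P394515 by 0.30 (exact adjusted p = 0.0354) in the same measure. A_52_P631197 fell more than A_51_P394515 by 0.71 (exact adjusted p = 0.0121), and by 0.44 without replicate 2 (exact adjusted p = 0.0509). All 3 probes were well above background on all 26 arrays. The scanner software, however, counted the spot as found on 26 arrays for A_51_P394515, 19 for A_52_P631197 and 20 for A_66_P121998. For A_52_P631197 these were 3 of 7 total WT, 7 of 7 total KO, 5 of 7 ChREBPβ WT and 4 of 5 ChREBPβ KO arrays. For A_66_P121998 they were 7 of 7, 5 of 7, 5 of 7 and 3 of 5 in the same order. The part of signal strength in the unequal changes was not tested.

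Rpe, the epimerase that turns ribulose 5-phosphate into xylulose 5-phosphate, was the member that rose. Its brightest probe, A_55_P2024649 (mm9 chr1:66766021-66766080), read 10.85, 10.95 and 11.25 in total WT and 11.35, 11.48 and 11.74 in total KO. All KO arrays lay above all WT arrays. The log2 difference was 0.53 (SE 0.07, adjusted p = 1.11e-06), or 144% of the WT level. The other 2 Rpe probes, A_52_P655831 and A_66_P133175, gave 0.72 (adjusted p = 4.27e-06) and 0.65 (adjusted p = 2.62e-06), also without overlap. Unlike those of Tkt, the Rpe probes thus moved by similar amounts, and KO was higher in all 4 wash batches at each. At A_66_P133175, however, the scanner software counted the spot as found on 3 of 7 total WT arrays and on all 7 total KO arrays. Its spots were well above background on all 26 arrays.

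In ChREBPβ KO the brightest Rpe probe read 11.45, 11.27, 11.28, 11.34 and 11.21, against 11.24, 11.36 and 11.47 in WT. The log2 difference was −0.03 (SE 0.08, adjusted p = 0.977, 95% interval −0.19 to 0.12). The difference between the effects of the 2 deletions was −0.56 (SE 0.10, adjusted p = 0.00036). Total WT had the lowest Rpe level of the 4 groups, and ChREBPβ WT stood 0.35 above it (SE 0.07, adjusted p = 0.000179). With the lymphocyte and muscle scores as covariates, the rise in total KO was 0.32 (adjusted p = 0.0133), the difference between the effects was −0.34 (adjusted p = 0.066), and the difference between WT groups was −0.03 (adjusted p = 0.915). The lymphocyte score did not overlap between the WT groups, at 11.25 to 12.84 in total WT and 7.85 to 8.80 in ChREBPβ WT. These fits therefore cannot tell the score from the line there. The part of other cell types in the Rpe result was not tested.

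Taldo1, transaldolase, shares its sugar phosphates with transketolase. At A_51_P401958 (mm9 chr7:148588764-148588823) total WT read 16.90, 17.02 and 17.38 and total KO 16.67, 16.77 and 16.92, which overlapped slightly. The log2 difference was −0.28 (SE 0.08, adjusted p = 0.00672), and A_65_P13883 gave −0.37 (SE 0.11, adjusted p = 0.00541). In ChREBPβ KO both probes were lower in the mean, by −0.25 (SE 0.09, unadjusted p = 0.00984, adjusted p = 0.454) and −0.21 (adjusted p = 0.726), neither of which passed. Both calls in total KO were lost in 3 of 11 other fits, with slide as a fixed block (adjusted p = 0.293 and 0.453), with values recomputed from the scanner files (0.054 and 0.0901) and with background correction (0.0569 and 0.0859).

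Rpia, the isomerase that makes ribose 5-phosphate, did not pass the test in either line. Its brighter probe, A_66_P109395, read 10.56, 10.77 and 11.30 in total WT and 10.16, 10.60 and 10.86 in total KO, with a log2 difference of −0.29 (SE 0.14, adjusted p = 0.0807). The dimmer probe, A_55_P2716236, gave −0.05 (adjusted p = 0.827). In ChREBPβ KO, A_66_P109395 differed by −0.08 (SE 0.15, adjusted p = 0.970). The spread between arrays was wide for this gene, with SDs of 0.245 to 0.295 at the brighter probe. Tktl1, a transketolase-like protein, had 0 of 26 spots well above background, with median spot intensities of 15 to 28 against backgrounds of 15 to 24. Its level therefore has only an upper bound in all 4 groups, and no difference is given.

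G6pdx encodes glucose 6-phosphate dehydrogenase, which commits glucose 6-phosphate to the pathway and makes NADPH. Its probe (mm9 chrX:71654949-71655008) read 14.74, 14.99 and 15.37 in total WT and 14.84, 15.19 and 15.39 in total KO. The ranges coincided almost wholly, and the log2 difference was 0.09 (SE 0.11, adjusted p = 0.553). The 95% interval ran from −0.15 to 0.32, so a fall of the size seen at the bright Tkt probe lay far outside it. In ChREBPβ KO the difference was 0.03 (SE 0.12, adjusted p = 0.993, 95% interval −0.23 to 0.28). The sign in total KO was not settled, since it was −0.23 (adjusted p = 0.307) with the lymphocyte and muscle scores as covariates.

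H6pd carries out the same reaction, and the lactonase step, inside the endoplasmic reticulum. Total WT read 13.19, 13.45 and 13.62, total KO 13.14, 13.25 and 13.50, ChREBPβ WT 13.48, 13.82 and 13.90, and ChREBPβ KO 13.90, 14.01, 13.69, 13.91 and 13.93. The difference in total KO was −0.17 (SE 0.08, adjusted p = 0.0802) and that in ChREBPβ KO was 0.11 (SE 0.08, adjusted p = 0.851). It passed in total KO without ChREBPtotal KO replicate 7 (adjusted p = 0.0367), without ChREBPtotal WT replicate 8 (adjusted p = 0.0287) and with the scores as covariates (−0.36, adjusted p = 0.0215). The test was passed between the WT groups, where ChREBPβ WT stood 0.34 above total WT (SE 0.08, adjusted p = 0.000865). That difference was −0.01 (adjusted p = 0.974) with the scores as covariates. The lymphocyte score did not overlap between the WT groups, so score and line cannot be told apart in that fit.

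Pgls, the lactonase of the cytosol, had 3 probes, of which 2 passed the test in total KO. The brightest, A_55_P2792415, differed by −0.09 in total KO (SE 0.07, adjusted p = 0.309), whereas A_51_P321794 gave −0.28 (SE 0.10, adjusted p = 0.02) and A_55_P2760181 gave −0.27 (SE 0.09, adjusted p = 0.0171). In ChREBPβ KO the brightest probe read 15.38, 15.36, 15.30, 15.36 and 15.26, against 15.41, 15.52 and 15.76 in WT. All KO arrays lay below all WT arrays, but the log2 difference of −0.23 (SE 0.07, unadjusted p = 0.00392) had an adjusted p of 0.376. The calls at the dimmer probes in total KO were lost in 3 of 11 other fits each. Both were lost with the scores as covariates (adjusted p = 0.321 and 0.122) and with slide as a fixed block (adjusted p = 0.161 and 0.139). That of A_51_P321794 was also lost with 75th percentile scaling (adjusted p = 0.214) and without ChREBPtotal WT replicate 4 (adjusted p = 0.0527), and that of A_55_P2760181 with the replicate number as a block (adjusted p = 0.0581).

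Pgd, 6-phosphogluconate dehydrogenase, makes the other NADPH of the oxidative branch. Its brightest probe, A_52_P84096 (mm9 chr4:148524293-148524352), read 15.14, 15.45 and 15.67 in total WT and 14.80, 15.06 and 15.45 in total KO. The ranges overlapped, and the log2 difference was −0.32 (SE 0.11, adjusted p = 0.0223). A_55_P2716651 gave −0.31 (SE 0.13, adjusted p = 0.0486) and A_55_P2716656, the dimmest member probe in the table, gave −0.02 (SE 0.13, adjusted p = 0.927). In ChREBPβ KO the brightest probe differed by nearly as much, −0.31 (SE 0.12, unadjusted p = 0.0162), with an adjusted p of 0.514. The call at A_52_P84096 was lost in 3 of 11 other fits, with slide as a fixed block (−0.20, adjusted p = 0.540), scanner values (−0.21, adjusted p = 0.194) and background correction (−0.21, adjusted p = 0.190), and also without ChREBPtotal KO replicate 5 (adjusted p = 0.0552) and without ChREBPtotal WT replicate 4 (adjusted p = 0.0515). That at A_55_P2716651 was lost in 5 of 11 other fits, with adjusted p-values of up to 0.552, and in 20 of 26 fits that left out 1 array.

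**Figure D3:**
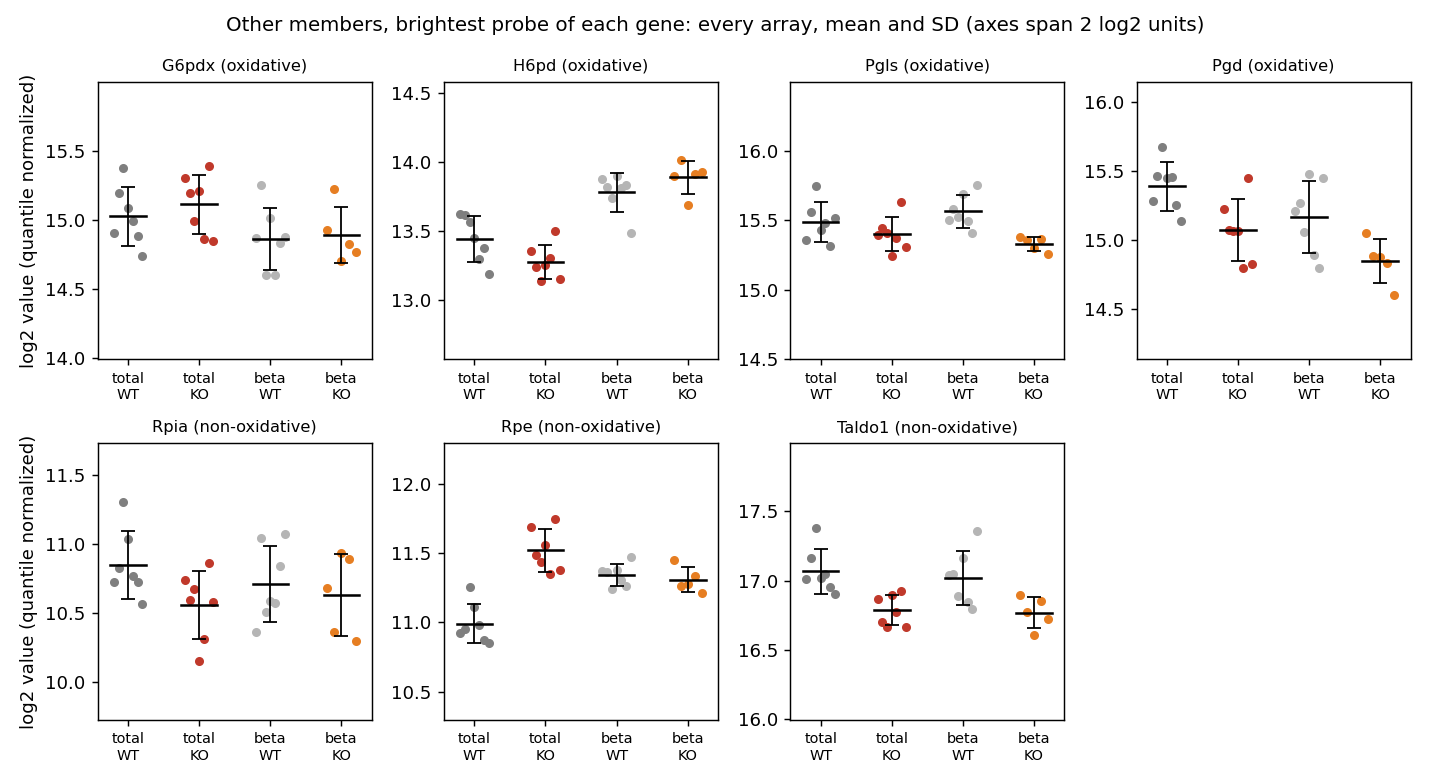
Log2 value of the brightest probe of the 7 other members in the value table on every array, in the 4 groups, with the mean as a line and the SD as a bar. Each panel spans 2 log2 units. Rpe is the panel in which total WT, at 10.85 to 11.25, and total KO, at 11.35 to 11.74, do not overlap, and H6pd is higher in both ChREBPβ groups than in total KO, apart from 1 ChREBPβ WT array at 13.48.

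By branch, 4 of 8 oxidative probes were called lower in total KO and 0 higher, where 19.6% of all probes were called lower and 25.9% higher, with a median log2 difference of −0.22 and values from −0.32 to 0.09. Of 10 non-oxidative probes, 5 were called lower and 3 higher, with a median of −0.29 and values from −2.30 to 0.72. With 1 probe per gene, 1 of 4 oxidative genes was called lower and 0 higher, and 2 of 4 non-oxidative genes lower and 1 higher. The medians were then −0.13 for the 4 oxidative and −0.29 for the 4 non-oxidative genes, and the difference between branches was not tested. The lowest and the highest values of the non-oxidative branch were those of Tkt and Rpe. The 3 of 10 called higher stood near the share of all probes called higher. In ChREBPβ KO, 0 of 8 oxidative probes were called by limma (3 at an unadjusted p under 0.05), with a median of −0.08, and 1 of 10 non-oxidative probes (3 at an unadjusted p under 0.05), with a median of −0.16. Over all 40168 probes, 0.0373% were called in that comparison and 3111 had an unadjusted p under 0.05.

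The balance of the branches was described on each array as the mean log2 value of the 4 oxidative genes minus that of the 4 non-oxidative genes, by their brightest probes. It was 0.62 ± 0.05 in total WT, 0.97 ± 0.06 in total KO, 0.61 ± 0.10 in ChREBPβ WT and 0.70 ± 0.15 in ChREBPβ KO (mean ± SD). All total KO arrays, at 0.87 to 1.05, lay above all total WT arrays, at 0.57 to 0.72. When Tkt was left out, the values were 1.87 ± 0.07, 1.76 ± 0.06, 1.82 ± 0.13 and 1.84 ± 0.15, and the total KO group was the lowest of the 4. The higher value of total KO therefore rested on Tkt. Levels of different probes are not comparable, so only differences between groups have a meaning here, and no test was made of these means over members.

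**Figure D4:**
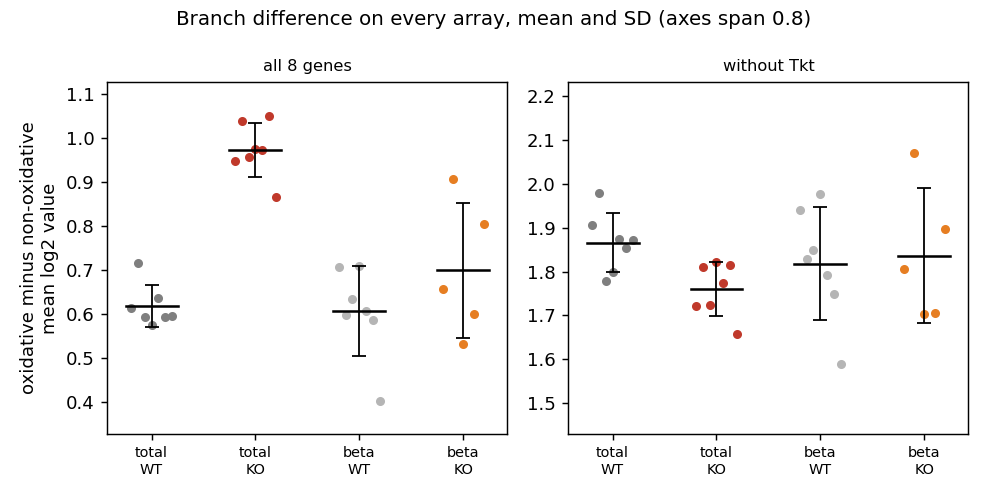
Mean log2 value of the oxidative genes minus that of the non-oxidative genes on every array, with all 8 genes on the left and without Tkt on the right, as group means with the SD. Each panel spans 0.8 log2 units. With all genes, the total KO arrays sit at 0.87 to 1.05 and the total WT arrays at 0.57 to 0.72, and without Tkt total KO has the lowest mean, 1.76.

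Within groups, members varied together to different degrees. Over the 26 arrays, as deviations from their group means, Pearson's r between the brightest probes of 2 members ran from −0.06 (H6pd and Rpia) to 0.83 (Pgd and Rpe), with a median of 0.54 over 28 pairs. The genes with the deviations most like those of Tkt among 40071 probes were Cux1, Cox20, Pcx, Ugp2 and Gbe1, each with an r of 0.86. For G6pdx they were Dym, Mblac2, Tpmt, Cyb5b and Cdpf1, with r from 0.90 to 0.91. The arrays share scaling and tissue make-up, so these values are a description only.

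Genes around the pathway were read from lists, by the brightest probe of each gene. In total KO the counts below stand against 45.5% of all probes called, 25.9% higher and 19.6% lower. Of 9 genes that supply or use glucose 6-phosphate, 5 were called lower in total KO and 1 higher. Hk2, a hexokinase, fell by 1.88 (adjusted p = 1.54e-12), Pfkl, a phosphofructokinase, by 1.44 (adjusted p = 1.69e-08) and Gpi1, glucose 6-phosphate isomerase, by 1.07 (adjusted p = 1.97e-08). Hk2 also fell in ChREBPβ KO, by 0.78 (SE 0.12, adjusted p = 0.00881). It was the 1 gene called in that comparison among the 5 lists around the pathway (10, 9, 11, 1 and 6 genes). Over all probes, 0.0373% were called in ChREBPβ KO. The fall of Hk2 in total KO stood beside log2 differences of −1.86, −2.30 and −0.34 at the 3 Tkt probes.

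Of 10 genes of other routes to NADPH, 5 were called higher and 4 lower in total KO. Aldh1l1, a cytosolic folate enzyme, rose by 1.54 (adjusted p = 2.11e-10), whereas Me1, the cytosolic malic enzyme, fell by 1.11 (adjusted p = 8.58e-08) and Me3, a mitochondrial malic enzyme, by 0.88 (adjusted p = 0.00498). Of 11 genes that handle pentoses and sugar acids, 6 were called higher and 3 lower. Prps1, which makes phosphoribosyl pyrophosphate from ribose 5-phosphate, rose by 1.1 (adjusted p = 1.33e-07), Dcxr, a xylulose reductase, by 0.94 (adjusted p = 6.17e-09), and Fggy, a carbohydrate kinase, by 0.62 (adjusted p = 4.56e-05). These lists thus moved in both directions.

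Of 6 reductases that use NADPH, 2 were called higher and 2 lower in total KO. Nqo1, a quinone reductase, rose by 0.91 (adjusted p = 3.96e-05), Blvrb, biliverdin reductase B, rose by 0.40 (adjusted p = 5.01e-05), and Txnrd2, the mitochondrial thioredoxin reductase, fell by 0.51 (adjusted p = 3.33e-05). G6pd2, a paralog of G6pdx, differed by 0.11 in total KO (SE 0.16, adjusted p = 0.617), and Tktl2 had no row in the value table. Cross-hybridisation between these paralogs was not tested.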

How the data were processed

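The authors extracted intensity values per spot from the scanned arrays with Agilent Feature Extraction 10.10.1.1, per the labels. The deposited scanner files hold these intensities on a linear scale. A second deposited file from the authors holds log2 values, made by filtering spots, quantile normalization and the median of replicate spots of a probe. Recomputing the table from the scanner median intensities gave values that differed by an SD of 0.0006 when replicate spots were resolved before normalization, and by 0.0143 when they were resolved after it, which moved bright probes (log2 above 13) by 0.0467 in total KO minus WT. The table was used as deposited. It has 97 missing values, all with a non-uniformity call. Column medians were 7.76 to 7.77.

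A linear model with 4 group means over all 26 arrays was fitted with limma 3.58.1 in R 4.3.3 (22 residual degrees of freedom). Benjamini-Hochberg adjustment ran over all 40168 probes, and the threshold for a call was an adjusted p of 0.05. A gene was represented by its probe of highest mean, and all members and all Tkt probes were named. Tkt probe pairs were compared by exact permutation. In the lists around the pathway, up to 3 called genes with the largest differences were named. The members and lists were chosen with earlier results of these data known. Groups were taken from the labels, and samples of a group were separate mice. Positions of probes came from the array annotation. The fit was tested on simulated data. Alternatives were other scalings, background correction (normexp with an offset of 50), a filter on dim probes, blocks for wash batch, slide and replicate number, the lymphocyte and muscle scores, only the groups compared, and leaving out each array. Resolving replicate spots before normalization was an alternative chosen after seeing the data. Array number limits the precision.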

Additional observations from a re-analysis of the deposited data

Results flagged for a closer look

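The following values stood out. At H6pd probe A_55_P1975510, ChREBPbeta_WT replicate 8 lay apart from the 6 others of its group, at 13.48. At Tkt probe A_52_P631197, ChREBPbeta_KO replicate 2 lay apart from the 4 others, at 5.65. These were 2 of 40 sets of arrays examined in this way, and chance alone sets a value apart in about 1 of 20.

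The effects of the 2 deletions differed at 5 probes by the test of the difference itself (ChREBPβ effect minus total effect): by 1.43 at Tkt A_51_P394515, by 1.17 at Tkt A_52_P631197, and by −0.56, −0.62 and −0.59 at Rpe A_55_P2024649, A_52_P655831 and A_66_P133175. In that test 22.5% of all probes were called, so 5 of 18 member probes stood near the share of all probes.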

How the results depend on the processing

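Over all results with a test or a value, 451 of 505 values from fits on all arrays under another processing kept direction and side of the threshold, as did 1290 of 1352 values with 1 array left out. The falls of Tkt A_51_P394515 (−1.98 to −1.74) and the rises of Rpe A_55_P2024649 (0.32 to 0.60) in total KO were called under all 11 other fits. In most cases below, the cause was not tested.

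With slide as a fixed block, total KO had 8646 called probes (6 members), ChREBPβ KO 0 (0 members) and the difference of effects 627 (1 member). With the lymphocyte and muscle scores as covariates the counts were 5337, 24 and 2246 (3 members), and 1405 (1 member) between WT groups. ChREBPβ KO had 9 called probes with background correction, 9 with 75th percentile scaling, 2 with only its line fitted and 6 with the replicate number as a block, and 0 members were called in each and with wash batch as a block. Leaving out 1 array gave 2 to 86 called probes in ChREBPβ KO, the latter without ChREBPbeta_KO replicate 4, and 0 to 2 members.

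Same-numbered KO and WT arrays correlated above 0.1 in 3 of 6 pairs of the total line and 1 of 4 of the ChREBPβ line. The values of r ran from −0.36 to 0.51 and from −0.33 to 0.14. So few pairs cannot decide whether replicate numbers pair the mice, and the main fit treated the arrays as unpaired. With the replicate block, Tkt A_52_P631197 in ChREBPβ KO was −1.18 (adjusted p = 0.0677). That call was also lost with background correction (0.0562), only its line (0.462), 75th percentile scaling (0.0985), fixed slide (0.966) and wash batch (0.0676). The Tkt pair A_52_P631197 minus A_51_P394515 was 0.12 in total KO and −0.42 in ChREBPβ KO (exact adjusted p = 0.0788) with background correction. With 1 array left out it was −0.81 to −0.44 in ChREBPβ KO, and A_66_P121998 minus A_51_P394515 was 0.24 to 0.36, the former without ChREBPbeta_KO replicate 6 (exact adjusted p = 0.0788). The Rpe difference of effects was −0.71 (adjusted p = 0.0837) and that of Tkt A_52_P631197 0.71 (adjusted p = 0.465) with fixed slide.

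The branch balance was 0.89 in total KO and 0.54 in total WT with 75th percentile scaling, and 0.56 in total WT with background correction. Between WT groups, the called differences of H6pd and of the 3 Rpe probes turned sign with the scores, to −0.012 for H6pd and −0.10, −0.031 and −0.0089 for Rpe, and were no longer called. The lymphocyte score did not overlap between the WT groups, so that fit cannot tell the score from the line. In the following cases the sign turned and neither fit gave a call. Tkt A_52_P631197 between WT groups was 0.13 with fixed slide. G6pdx in ChREBPβ KO was −0.037 with 75th percentile scaling, −0.0084 with the replicate block, −0.015 with fixed slide, −0.0060 with wash batch and −0.057 to 0.091 with an array left out, and −0.23 in total KO with the scores. In total KO, Pgd A_55_P2716656 was 0.0063 with the replicate block and −0.092 to 0.091 with an array left out, Pgls A_55_P2792415 was 0.0018 with scanner values, and Rpia A_55_P2716236 was 0.26 with fixed slide and −0.15 to 0.028 with an array left out. Rpia A_66_P109395 in ChREBPβ KO was −0.15 to 0.0050 with an array left out. The number of arrays and the dimness of the weaker probes limit these comparisons.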
